A study of Danio rerio with 4 samples.

Results

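The regions described here are stretches of open chromatin that were called in the non-periderm cells of the zebrafish embryo alone and that lie close beside a stretch open in every library. Embryos of the line Tg(krt4:GFP) were taken apart at 4 somites, and the sorted cells were assayed by ATAC-seq, in which the Tn5 transposase cuts and tags accessible DNA. In these fish the krt4 promoter drives GFP in the periderm, the superficial epithelial layer. There were 2 libraries of GFP-negative cells and 2 libraries of GFP-positive cells, numbered 1 and 2 in each group, all from the same transgenic line and stage and each from pooled embryos. Both populations were sorted from the same dissociated embryos, but which libraries are paired in this way is not stated. GFP-negative cells were everything that the sort left behind, so that they mix many cell types. GFP-positive cells are taken as periderm here from the sort. From sections of this line at the same stage, the study reported high GFP in the periderm only. Its RNA-seq of cells sorted anew also linked the GFP-positive cells to genes annotated for that layer. The peak lists hold positions and no gene names, and the sort was not checked against marker genes here.

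Joining peaks of the 4 lists wherever they shared 1 bp or more gave 694637 regions. A GFP-negative-only region held a peak in both GFP-negative lists and in neither GFP-positive list, which was the case for 39772 regions or 5.73% of all. A shared region held a peak in all 4 lists, which was the case for 110754. Of the GFP-negative-only regions, 9704 lay within 1 kb of their nearest shared region, edge to edge. These 9704 flanking regions made up 24.4% of the GFP-negative-only regions and 1.4% of all regions. They were thus chosen by the peak calls of all 4 lists and by the gap, and every value taken from those lists is given as a description, with no test.

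Open chromatin is DNA from which nucleosomes have been displaced, mostly at promoters, enhancers and sites bound by insulator proteins. A promoter is often open in many cell types, while enhancers near it can be open in only some of them. A nucleosome-free region (NFR) is often flanked by positioned nucleosomes, and an NFR next to it often starts beyond such a nucleosome or where it has been lost. The edges of called peaks also depend on the settings of the peak caller, so a gap between them need not be the length of a nucleosome.

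The flanking regions were of low to middle strength within their lists. Their width ranged from 53 to 796 bp with a median of 124 bp, against 122 bp for the GFP-negative-only regions farther than 1 kb from a shared region. Fold enrichment, which sets the height of a peak against its library's background, ranged from 2.65 to 19.3 with a median of 4.55 in GFP-negative replicate 1. In GFP-negative replicate 2 it ranged from 2.86 to 21.2 with a median of 4.9. The lowest value in each case was the lowest fold of the whole list, so the flanking regions reached down to the limit at which peaks were called.

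Ranked among all peaks of the same list, the median flanking region stood at percentile 48.3 in GFP-negative replicate 1 and at percentile 43.9 in replicate 2, and the GFP-negative-only regions farther away stood at 48.3 and 33.3. The fold takes only whole steps, and the difference between 43.9 and 33.3 is the difference of a single step. Below percentile 50 in both GFP-negative lists lay 3568 flanking regions (36.8%), against 40.0% of the GFP-negative-only regions farther away. Above percentile 90 in both lists lay 3 flanking regions, against 8 of the 30068 farther away. The strength of the flanking regions thus covered the lower and middle part of each list, with few strong members.

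Which flanking regions were the stronger ones was only loosely shared by the 2 GFP-negative lists. Across the 9704 regions the Pearson correlation of log2 fold between the lists was 0.305 and Spearman's rho of fold was 0.243. Across the 30068 GFP-negative-only regions farther away these values were 0.322 and 0.248, so the loose agreement was not particular to the flanking regions. Across the 9109 shared regions beside the flanking regions the same lists gave 0.917 and 0.878. Regions are not replicates and share their libraries, and the flanking regions span a narrow range of fold, so these correlations describe the lists only. The part covered by the peaks of both lists was 50.5% of a flanking region's width at the median.

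**Figure D1:**
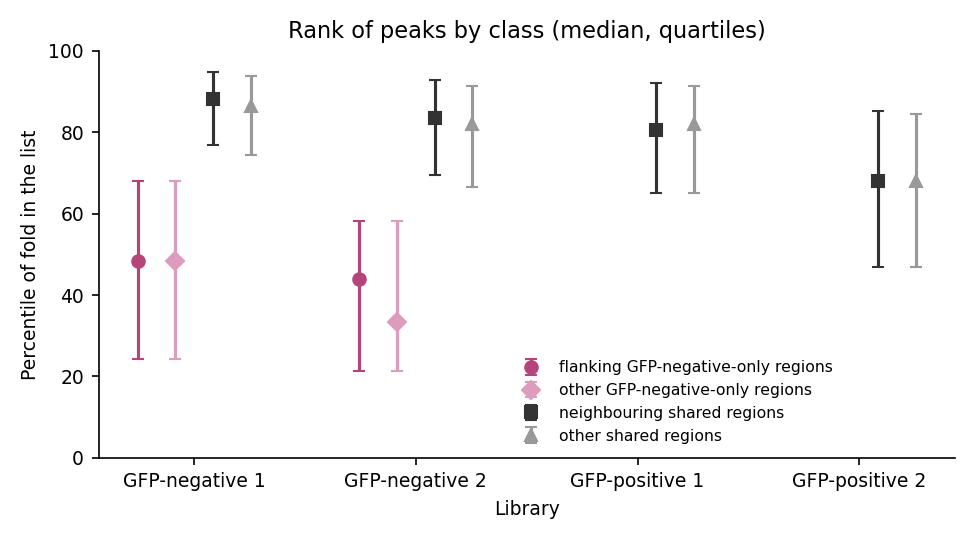
Percentile of fold within each list (vertical axis, median as symbol and quartiles as bars) in the 4 libraries for the 9704 flanking GFP-negative-only regions, the GFP-negative-only regions farther away, the 9109 shared regions beside the flanking regions and the other shared regions. The flanking regions stand at a median of 48.3 and 43.9 in the GFP-negative lists, far under the shared regions beside them at 88.2 and 83.6, and have no value in the GFP-positive lists by definition.

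The heights of the flanking regions were also set beside the depth of each library. The steps of the fold values give an implied number of overlapping tags at the top of each peak, a computed value that rests on the settings of the peak caller. The median was 11 tags for the flanking regions in each GFP-negative list. The implied depth was 42446898 and 37589490 tags in GFP-negative replicates 1 and 2, against 24915273 and 29455700 tags in GFP-positive replicates 1 and 2. The heights were scaled to those lower depths and averaged over the GFP-negative lists. The median flanking region would then hold 6.91 tags in GFP-positive replicate 1, where the lowest called peak held 5. In GFP-positive replicate 2 it would hold 8.17 tags, where the lowest called peak held 6. A scaled height of at least 2 times those minima was found for 917 flanking regions (9.45%) in GFP-positive replicate 1 and 853 (8.79%) in replicate 2. Both minima were met in this way by 853 flanking regions, beside 3150 of all 39772 GFP-negative-only regions. A scaled height under the minimum was found for 477 (4.92%) in replicate 1 and 586 (6.04%) in replicate 2, so that most flanking regions scaled to between 1 and 2 times the lowest called height. The implied depth was thus higher in both GFP-negative libraries, and its part in the absence of GFP-positive calls was not tested. A region that is missing from the GFP-positive lists is one that was not called there, and opening in a few of the sorted cells cannot be told apart from weak opening in many.

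The number of flanking regions moved with the way the lists were treated. It was 3101 when each list was limited to the same number of its strongest peaks, 4571 with the upper 50% of each list, and 853 with the scaled height of at least 2 times both minima. With other gap limits it was 6425 within 500 bp and 14317 within 2 kb. Without a library, 1 of the populations rests on 1 list and the count rises by construction, to 31606 and 47577 when GFP-negative replicate 1 or replicate 2 was left out, and to 21678 and 15770 when GFP-positive replicate 1 or replicate 2 was left out. Just beyond the rule lay 12862 regions near a shared region that held a peak in both GFP-negative lists and in 1 GFP-positive list, which was replicate 1 for 10542 of them and replicate 2 for 2320. The list of GFP-positive replicate 1 was also the longer one, with 336052 peaks against 190059. The part of list length in this split was not tested. These 12862 regions had a median fold of 5.31 in each GFP-negative list, against 4.55 and 4.9 for the flanking regions in replicates 1 and 2. Their median percentiles there were 63.2 and 52.0, against 48.3 and 43.9 for the flanking regions.

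Flanking was then set beside the same measure for regions with other patterns of calls. The share within 1 kb of a shared region was 24.4% of GFP-negative-only regions (95% Wilson interval 24.0 to 24.8%, which covers counting error only). It was 17.9% of the 10906 GFP-positive-only regions (17.2 to 18.6%), which make up 1.57% of all regions. Regions called in 1 list had a share of 17.3%, regions called in 1 list of each population 21.6%, and regions called in 3 lists 26.0%. The value for GFP-negative-only regions thus lay between those for regions in 1 list and in 3 lists. Near a shared region there were 1951 GFP-positive-only regions. Of the 9704 flanking regions, 161 had a GFP-positive-only region within 1 kb, and the same share over all regions was not computed.

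The gap between a flanking region and its shared region was 326 bp at the median, with quartiles of 128 and 618 bp. The gaps were unevenly spread. From 50 to under 125 bp lay 1882 flanking regions (19.4%), with the fullest 25-bp bin from 75 to 100 bp (666 regions), while the first 25 bp held 140. The bins fell to 253 regions at 200 to 225 bp, stood at 310 in the next bin, and declined slowly to 139 in the last. For the 1951 GFP-positive-only regions near a shared region, the median gap was 380 bp and 14.5% lay from 50 to under 125 bp. A gap shorter than the tag extension of 54 bp was found for 571 flanking regions (5.88%), and 1 adjoined its shared region without a gap. The median distance to the nearest GFP-positive peak was 266 bp in replicate 1 and 351 bp in replicate 2. A peak of GFP-positive replicate 1 lay within 100 bp of 1533 flanking regions, and a peak of replicate 2 within 100 bp of 841. With a margin of 100 bp free of GFP-positive peaks, the count was 7874. Such distances are not given here for other regions.

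**Figure D2:**
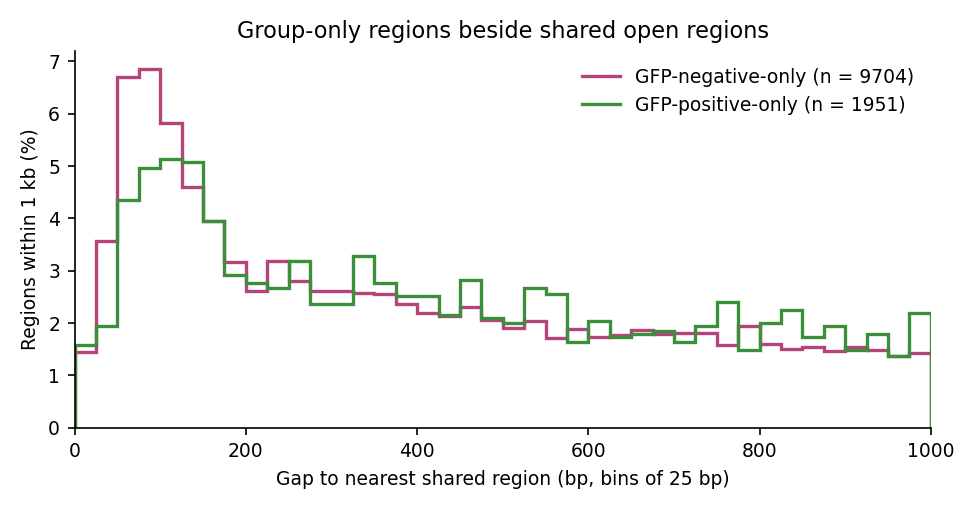
Gap to the nearest shared region (horizontal axis, bp, bins of 25 bp) for the 9704 GFP-negative-only and the 1951 GFP-positive-only regions within 1 kb, as a percent of each class. Both lines are highest between 50 and 150 bp and decline slowly from 250 bp on.

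Strength hardly followed the gap. The 1802 flanking regions under 100 bp from their shared region had a median percentile of 48.3 and 43.9 in GFP-negative replicates 1 and 2, and the 3286 at 500 bp or more had 48.3 and 33.3, again 1 step of fold. The width of the shared regions differed with the gap. Those beside the closest flanking regions were 275 bp wide at the median, against 243 bp for those at 500 bp or more. No side was preferred by much, with 4759 flanking regions at lower coordinates than their shared region and 4945 at higher ones. A second shared region within 1 kb on the other side was present for 1281 (13.2%), and the same share for other regions near a shared region is not given here.

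The 9704 flanking regions lay beside 9109 shared regions, 8.22% of all shared regions. Most of these neighbours had 1 flanking region (8549), while 526 had 2, 33 had 3 and 1 had 4. Among the neighbours with 2, the flanking regions lay on opposite sides in 221 cases and on the same side in 305. Of the 9109 neighbours, 121 were also the nearest shared region of a GFP-positive-only region within 1 kb, beside 1915 of all 110754 shared regions. Flanking regions of the same neighbour share their surroundings and are not independent of each other.

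The neighbours themselves were strong in all lists. Their median fold was 11.0 in each GFP-negative list, against 9.69 and 8.43 in GFP-positive replicates 1 and 2. Fold depends on depth and was not scaled between libraries, so these folds are not on a common scale. The median width of the neighbours was 256 bp, against 234 bp for the other shared regions. By percentile within the list they stood at 88.2 and 83.6 in GFP-negative replicates 1 and 2 and at 80.5 and 67.9 in GFP-positive replicates 1 and 2. Other shared regions stood at 86.4 and 81.9 in the GFP-negative lists and at 82.0 and 67.9 in the GFP-positive lists. Neighbours with more flanking regions were wider, with a median of 255 bp for 1, 274 bp for 2 and 294 bp for 3 or 4 flanking regions, the last from 34 neighbours only.

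A comparison of the populations at the neighbours uses the same contrast as the choice of the flanking regions and is given as a description. The percentile was higher in both GFP-negative lists than in both GFP-positive lists at 4279 neighbours (47.0%), beside 40.5% of all shared regions, and lower at 427 neighbours (4.69%), beside 6.57% of all shared regions. The GFP-negative list was the longer one for each replicate number, and the part of list length in these counts was not tested. Ranked among shared regions alone, a measure added after the data were seen, 2721 neighbours (29.9%) were higher in both GFP-negative lists, beside 24.4% of all shared regions, and 1829 (20.1%) were lower, beside 24.8%.

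The median difference in percentile at the neighbours, GFP-negative minus GFP-positive, was 7.55 points, and 6.01 points at all shared regions. Within replicate number 1 it was 3.68 points at the neighbours, against 2.68 at all shared regions, and within replicate number 2 it was 10.4, against 8.53. It was 12.6 points without GFP-positive replicate 1 and 2.63 points without GFP-positive replicate 2. By rank among the shared regions it was 1.55 points, with 1.48 and 1.39 within replicate numbers 1 and 2, against -0.0175 at all shared regions. Each list ranks the same shared regions, so the mean rank over all of them is equal in every list by construction. With equal numbers of the strongest peaks per list the difference in percentile at the neighbours was 8.44 points, and with the upper 50% of each list it was 4.97 points. The difference at the neighbours was thus positive in all of these settings, while its size differed. By percentile it was also positive at all shared regions, so the kept sign says little about the neighbours in particular. Values at all shared regions are not given for the settings with a library left out, equal numbers of peaks or the upper 50%.

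The edges of the neighbours were compared on the side of the flanking region and on the far side. On the near side the outermost GFP-negative peak reached 12 bp beyond the outermost GFP-positive peak at the median and reached farther for 65.7% of flanking regions. On the far side the values were 11 bp and 65.3%. Over all shared regions they were 8 bp and 61.0% on the lower-coordinate side and 8 bp and 61.3% on the higher-coordinate side. GFP-negative peaks thus reached farther out on both sides, at the neighbours and over all shared regions alike in direction.

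The 6 strongest flanking regions, by the lower of their percentiles in the GFP-negative lists, are given with coordinates of danRer7 (Zv9). No annotation of that build was used here, so that genes, exons and introns at these places are not given. The first lay at chr3:26905574-26906212, was 639 bp wide and had a fold of 19.3 and 21.2 in GFP-negative replicates 1 and 2. Its shared region, chr3:26906281-26907977, began after 68 bp and had folds of 40.6 and 38.8 in GFP-negative replicates 1 and 2, against 9.18 and 7.49 in GFP-positive replicates 1 and 2. The shared region was thus also higher in both GFP-negative lists than in both GFP-positive lists.

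The next lay at chr23:4430339-4430738, with folds of 15.2 and 20.8 in GFP-negative replicates 1 and 2. It stood 50 bp from a shared region at chr23:4429703-4430288 with folds of 17.1 and 21.2 in the GFP-negative lists, against 9.18 and 9.36 in the GFP-positive lists. Here the flanking region was about as strong as the shared one in the GFP-negative lists. On chromosome 21, chr21:19541727-19541876 had folds of 12.5 and 15.5 in GFP-negative replicates 1 and 2 and was stronger than its shared region, 195 bp away, which had 9.86 and 10.2 in the GFP-negative lists, against 5.1 and 6.09 in the GFP-positive lists.

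At the other strong flanking regions the folds of the neighbour overlapped between the populations. The region at chr8:19100889-19101105 had folds of 17.8 and 16.7 in GFP-negative replicates 1 and 2, and its neighbour at 627 bp had 15.9 and 17.6 in the GFP-negative lists, against 17.3 and 12.2 in the GFP-positive lists. The region at chr8:5006153-5006301 had folds of 14.8 and 15.5 and stood 178 bp from a very strong neighbour, with 140.0 and 122.0 in the GFP-negative lists, against 135.0 and 169.0 in the GFP-positive lists. That neighbour was very strong in every library, and the flanking region was called in the GFP-negative lists alone. The region at chr12:15469809-15469884 had folds of 11.8 and 16.3, and its neighbour at 110 bp had 6.45 and 8.16 in the GFP-negative lists, against 7.14 and 5.15 in the GFP-positive lists. By percentile this neighbour was higher in both GFP-negative lists, at 74.5 and 75.7, against 69.0 and 29.8 in the GFP-positive lists. The neighbour at 627 bp overlapped by percentile too, with 92.8 and 91.1 against 92.1 and 81.5. The neighbour at 178 bp stood at percentile 99.8 or above in every list.

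**Figure D3:**
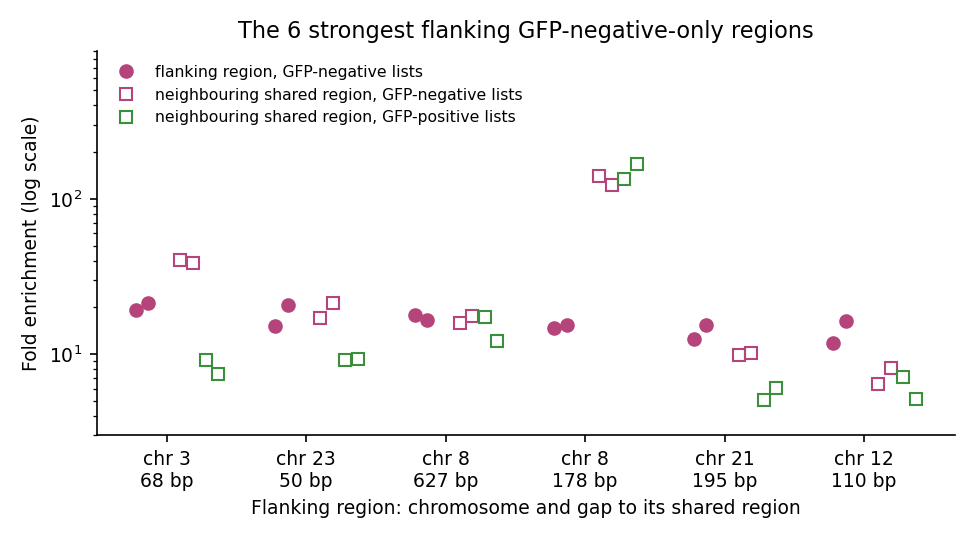
Fold enrichment on a log axis for the 6 strongest flanking GFP-negative-only regions (filled circles, GFP-negative replicates 1 and 2) and for the shared region beside each (open squares, GFP-negative and then GFP-positive replicates 1 and 2), named by chromosome and gap. The neighbours on chromosomes 3, 23 and 21 are higher in both GFP-negative lists than in both GFP-positive lists, and the neighbours on chromosomes 8 and 12 overlap in fold. By percentile within the list, the neighbour on chromosome 12 is higher in both GFP-negative lists. The chromosome 8 neighbour at 178 bp is lower in both by percentile. Fold was not scaled between libraries.

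The 3 widest flanking regions had folds of 3.67 to 9.48 in the GFP-negative lists. At chr18:30013038-30013833, 796 bp wide, the folds were 5.31 and 3.67 in GFP-negative replicates 1 and 2, and the region ended 1 bp before a shared region with folds of 111.0 and 127.0 in the GFP-negative lists, against 91.3 and 90.8 in the GFP-positive lists. At chr12:285128-285784, 657 bp wide, the folds were 4.93 and 3.67, beside a shared region 55 bp away with 118.0 and 112.0 in the GFP-negative lists, against 82.1 and 61.8 in the GFP-positive lists. Both of these wide regions had low folds next to a shared region at or above percentile 99.3 in every list. The next, chr22:233808-234456 with folds of 9.48 and 4.49, was 649 bp wide and lay 920 bp from a shared region with 4.93 and 4.9 in the GFP-negative lists, against 7.65 and 5.15 in the GFP-positive lists.

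The shared region with the most flanking regions was chr15:10300530-10300798, with folds of 42.5 and 49.8 in GFP-negative replicates 1 and 2, against 20.9 and 21.1 in GFP-positive replicates 1 and 2. Its 4 flanking regions lay 815, 424 and 136 bp away at lower coordinates and 827 bp away at higher ones. Their folds ranged from 3.03 to 5.31 in GFP-negative replicate 1 and from 4.49 to 6.12 in replicate 2. Of the 33 shared regions with 3 flanking regions, those whose flanking regions had the highest summed percentiles (the lower of the GFP-negative lists for each) were both on chromosome 10. At chr10:13018801-13019257 the shared folds were 86.1 and 84.9 in the GFP-negative lists, against 54.1 and 40.7 in the GFP-positive lists, and the 3 flanking regions were all on the same side, at 280, 498 and 791 bp. At chr10:13023973-13024269 they were 28.8 and 30.6 in the GFP-negative lists, against 6.63 and 11.7 in the GFP-positive lists, with flanking regions at 85 bp on one side and at 362 and 600 bp on the other. By percentile, all 3 of these shared regions were higher in both GFP-negative lists than in both GFP-positive lists. So were 21 of the 34 neighbours with 3 or 4 flanking regions (61.8%), beside 47.0% of all neighbours and 40.5% of all shared regions. Lower in both GFP-negative lists were 2 of the 34 (5.88%), beside 4.69% of all neighbours and 6.57% of all shared regions. These 34 were chosen by their number of GFP-negative-only regions, which is the same contrast, so these shares are a description.

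The 1 kb limit had 6 GFP-negative-only regions at a gap of 1000 bp and 3 at 1001 bp, of which the one with the highest lower percentile is given for each. Just inside, chr1:35549479-35549572 lay 1000 bp from its shared region and had folds of 5.69 and 4.9 in GFP-negative replicates 1 and 2. Just outside, chr12:22172527-22172780 lay 1001 bp away and had folds of 5.31 and 5.71. Their widths were 94 bp inside and 254 bp outside.

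Along the genome, the flanking regions were found on all 25 chromosomes, from 308 on chromosome 25 to 541 on chromosome 7. The share of GFP-negative-only regions that flanked a shared region ranged from 21.8% on chromosome 17 (95% Wilson interval 19.8 to 23.9%) to 28.8% on chromosome 23 (26.5 to 31.2%). The number per 100 shared regions ranged from 7.61 on chromosome 15 to 9.95 on chromosome 25.

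Pooled over the chromosomes, density and share also differed with the distance from a chromosome end. The outer 1 Mb at each chromosome end held 1151 flanking regions or 23.0 per Mb, against 5.83 per Mb at more than 10 Mb from an end. All kinds of region were denser there, with 926.0 regions of any kind per Mb against 463.0, and 156.0 shared regions per Mb against 76.1. The outer 1 Mb thus held 11.9% of the flanking regions, 8.11% of all GFP-negative-only regions, 7.03% of shared regions and 6.66% of all regions. Of the GFP-negative-only regions in the outer 1 Mb, 35.7% flanked a shared region (34.1 to 37.4%), against 27.5% at 1 to 2 Mb and 23.1% at more than 10 Mb (22.6 to 23.7%). The GFP-positive-only regions near a shared region had 10.3% of their number there. The flanking regions in the outer 1 Mb had a median fold of 4.55 and 4.49 in GFP-negative replicates 1 and 2, against 4.55 and 4.9 elsewhere, and a median width of 132 bp, against 124 bp elsewhere.

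**Figure D4:**
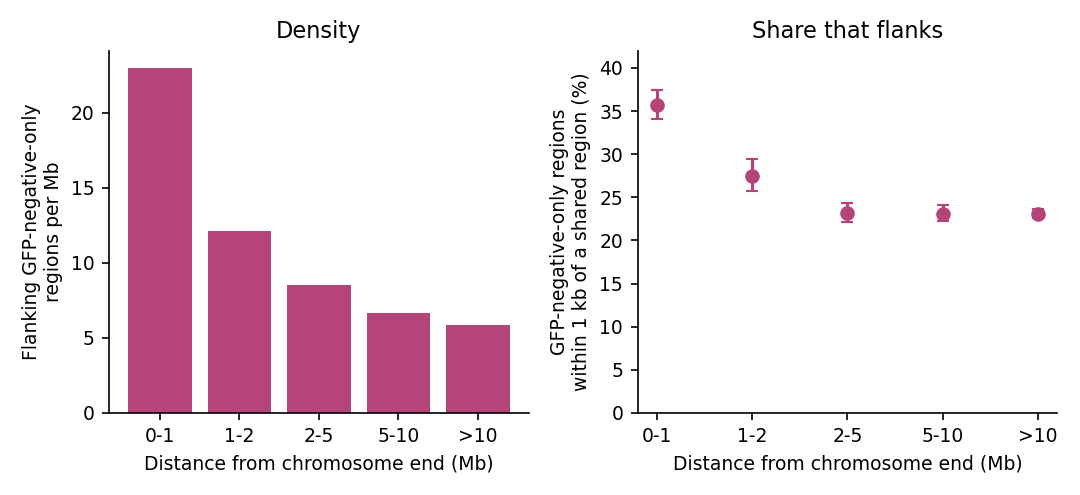
Flanking GFP-negative-only regions by distance from the nearer chromosome end (Mb), as regions per Mb (bars) and as the percent of GFP-negative-only regions in that zone that flank a shared region (points, with 95% Wilson intervals for counting error). Density falls from 23.0 per Mb in the outer 1 Mb to 5.83 per Mb beyond 10 Mb, and the share falls from 35.7% to 23.1%.

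Among the 1369 windows of 1 Mb, with a mean of 7.09 flanking regions each, the fullest was the last of chromosome 24, with 42 flanking regions among 923 regions. The first windows of chromosomes 25 and 22 followed with 41 and 40. The 12 fullest windows all reached into the outer 1 Mb of a chromosome. On a scale of 100 kb both of the fullest tiles lay away from chromosome ends. The tile at chr12:15400001-15500000 held 18 flanking regions among 26 GFP-negative-only and 35 shared regions, and 1 of the 6 strongest lies in it. The tile at chr10:13000001-13100000 held 16 flanking regions among 22 GFP-negative-only and 27 shared regions, and 4 of its shared regions had 3 flanking regions each. These windows and tiles were chosen after their counts were seen, and each tile held 1 GFP-positive-only region.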

How the data were processed

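Before deposit the authors trimmed and mapped the reads (Bowtie 2), discarded PCR duplicates, limited the data to short, nucleosome-free fragments and ran MACS2 2.1.1 on every library by itself, without a local background. The methods of the study name danRer7 and the submitters' processing notes danRer10. The positions were taken as danRer7, since each GFP-positive list has a peak in all 5 elements that the study places on that build, and peaks on chromosome 1 reach 60348296. The value deposited by the authors with each peak has no name and was read as a ratio, the fold over the constant background of its library. It is a whole multiple of 1 step per list (largest distance 0.0003 steps), from which the height in tags and the implied depth follow with the extension of 54 bp and genome size of 1400000000 bp used in peak calling. The lists held 455867 and 333588 peaks for GFP-negative replicates 1 and 2, and 336052 and 190059 for GFP-positive replicates 1 and 2.

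A region's percentile is that of its highest peak among all peaks of the list, ties taking their mean rank. Gaps count the bases between edges, and positions are counted from 1. A chromosome end was taken as position 1 and the last peak. No read counts were used, so the study's read-based differential test (DiffBind) was not run, and 2 libraries per group allow no p under 0.333 in an exact test over splits into pairs. Libraries came from separate incrosses, each giving both populations, and nothing states which libraries share an incross. The members, the lists and the rules for named regions (the 6 with the highest lower percentile, the 3 widest, the 3 shared regions with the most flanking regions, and 1 on each side of the limit) were chosen with earlier results of these data known. Alternatives were other gaps, a 50% overlap, the upper 50% of each list, equal numbers of peaks, joining within 100 bp, a margin of 100 bp free of GFP-positive peaks, values within a replicate number, and each library left out. The scaled height, the rank among shared regions and leaving out chromosome ends were added after the data were seen. Steps were tested on simulated lists. The scripts ran under matplotlib 3.10.9, scipy 1.17.1, pandas 2.3.3 and numpy 2.4.6 (Python 3.11.15). Sequences and genes of danRer7 were not used here.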

Additional observations from a re-analysis of the deposited data

How the results depend on the processing

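The count of flanking regions stayed within 1.5 times of 9704 under a 50% overlap, joining within 100 bp, a 100 bp margin free of GFP-positive peaks and leaving out the outer 1 Mb of chromosomes. A 2 kb gap was just inside that range, at 14317, so the count depended on the gap limit in both directions. The 50% overlap left all 5 measures close to their values. In the order count, share of GFP-negative-only regions and median gap, the values were 6425, 16.2% and 176 bp within 500 bp, 4571, 19.1% and 295 bp with the upper 50% of each list, and 3101, 22.1% and 288 bp with equal numbers of peaks. For share and median gap they were 36.0% and 600 bp within 2 kb, 21.6% and 384 bp with joining, and 22.0% and 379 bp with the margin. The share was 23.4% without the outer 1 Mb, and count and share were 853 and 27.1% at a scaled height of at least 2 times the minima. The median percentile of the flanking regions, 46.1 as a mean of the GFP-negative lists, was 69.1 with the upper 50% and 68.7 with equal numbers, where weak peaks are left out by construction. With each library left out in turn, which lets 1 population rest on 1 list, the ranges were 15770 to 47577 for the count, 19.8% to 32.6% for the share, 304 to 397 bp for the gap, 33.3 to 54.4 for the percentile, and 2.63 to 12.6 points for the difference at the neighbours. That difference was 1.55 points by rank among shared regions. With the replicate block it was 3.68 points within number 1 and 10.4 within number 2. The design text gives both populations from each incross but does not tie a number to an incross. Over shared regions the deviations of same-numbered libraries had a correlation of 0.005. With 2 libraries per group and regions that are not replicates, this value cannot decide whether same-numbered libraries are paired. The lists hold called peaks only, so openness under the calling minimum of a GFP-positive library is not seen, and the part of depth in the missing calls was not tested.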
